A study of Mus musculus with 23 samples.

Results

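Clonal fat precursor lines carrying the highest media acidification score in the labels, 4, were compared with lines carrying the lowest, 1, after the lines of adipocyte type Type 1 had been set aside. The comparison used 13 of the 23 lines of the series, 6 with score 4 and 7 with score 1, each measured on 1 expression array. The 5 lines of score 3 and the 2 lines of score 2 stayed out of the contrast and are given beside it as values. The score 4 lines were SCF1-12 (Type 3, differentiation score 3), SCF1-23 (Type 2, 2), SCF3-1 (Type 2, 4), SCF3-11 (Type 2, 2), SCF3-16 (Other, 3) and PGF3-5 (Other, 3). The score 1 lines were SCF1-7 (Other, 3), SCF1-18 (Other, 2), SCF3-6 (Other, 2), PGF2-4 (Other, 4), PGF3-2 (Type 2, 4), PGF3-3 (Type 3, 2) and PGF3-6 (Other, 2).

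Every line was a single clone from the stromovascular fraction of 1 male Immortomouse aged 8 weeks, an animal whose cells carry a temperature-sensitive SV40 large T antigen that interferon gamma induces. Cells from subcutaneous and perigonadal fat were grown at 33 °C with interferon gamma at 10 units/mL, and 190 single cells were sorted after 2 passages. The depot of a line was read here from the prefix of its clone name, SCF for subcutaneous and PGF for perigonadal. All groups shared mouse, culture temperature and interferon gamma, so each p-value below measures the spread between clones of 1 animal. The labels state neither which end of the acidification score stands for the more acid medium nor whether RNA was taken before or after adipogenic induction, and no direction of acidification is attached to any value here. The submitters had grouped the lines by clustering these expression data, so the adipocyte types are not independent of the values, and the Other lines carry none of the numbered types.

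Cultured cells acidify their medium mainly by exporting lactate together with a proton and by releasing carbon dioxide from oxidative metabolism. Glucose enters through facilitative transporters of the Slc2a family, glycolysis turns it into pyruvate, lactate dehydrogenase interconverts pyruvate and lactate, and monocarboxylate transporters of the Slc16a family carry lactate and a proton across the plasma membrane. Sodium-proton exchangers, bicarbonate transporters and carbonic anhydrases then set the pH on either side of that membrane, and in fat precursors the same carbon also feeds fatty acid synthesis as the cells turn into adipocytes.

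The other labels were unevenly spread over the groups, and none of the spreads passed a test. Lines of type Other made up 2 of the 6 score 4 lines and 5 of the 7 score 1 lines (two-sided Fisher's exact test, p = 0.286). Type 2 lines were 3 of 6 and 1 of 7 (two-sided Fisher's exact test, p = 0.266), and SCF lines were 5 of 6 and 3 of 7 (two-sided Fisher's exact test, p = 0.266). Differentiation scores 2, 3 and 4 were held by 2, 3 and 1 of the score 4 lines and by 4, 1 and 2 of the score 1 lines. Type and depot therefore lean the same way as the acidification score. Of the 81 named genes tested, 12 differences moved by more than 1.5 times without turning, and 2 turned sign, with depot in the model; 19 moved and 2 turned with adipocyte type in the model. Among SCF lines alone 33 moved and 8 turned, and among the lines labelled Other 42 moved and 7 turned. Leaving out any 1 line moved or turned 23 of the 81, of which 7 turned, and 0 of the 24 leading genes. The leading genes were picked by their size and p in this same contrast, so that 0 is not read as support for them.

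The lines carried most, not all, of the fixed markers of fat precursors. Pdgfra and Pdgfrb, receptors of stromal precursors, and the fibrillar collagens Col1a1 and Col3a1 lay above the table median of 5.13 on the log2 scale in 13 of 13 lines, Thy1 in 12 and Cd34 in 9, with Cd34 from 3.75 to 10.66. Ptprc, Adgre1 and Itgam of leukocytes, Pecam1 and Cdh5 of endothelium, Cdh1 of epithelium, Myod1 of skeletal muscle and Msln of mesothelium lay above it in 0 of 13. Other members of those marker lists did not stay low. Csf1r (7.73 to 11.68), Laptm5, Kdr, Egfl7, Epcam, Upk1b, Ckm and Acta1 (5.27 to 7.71) were above the median in 13 of 13. Cd68 and Krt19 were so in 12, and Cd53 (4.66 to 10.51) and Tek (4.20 to 10.59) in 11. Among pericyte and Schwann cell markers, Cspg4, Notch3 and Sox10 were above it in 13 of 13 and Rgs5 in 0. Some markers of each list were above the median in at least 1 of the 13 lines. These were 7 of 12 leukocyte, 4 of 10 endothelial, 2 of 6 epithelial and 7 of 11 mesothelial markers. They were also 2 of 7 skeletal muscle, 5 of 6 pericyte and 3 of 3 Schwann cell markers on the array. The part of such cells or transcripts in the results was not tested. The mean level of the 11 mesothelial markers was 4.01 to 5.12 in the score 4 lines, 4.01 to 4.40 in the score 1 lines and 8.29 to 10.4 in the 3 Type 1 lines. Array medians ran from 5.09 to 5.16, and pairs of the 13 arrays correlated at 0.968 to 0.991 over all probe sets. In these bulk samples, fewer cells of a kind and less RNA per cell cannot be told apart.

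No gene passed the test. Of 11942 genes tested, 0 (0%) had an adjusted p below 0.05 in limma, and the smallest adjusted p was 0.766. At an unadjusted p below 0.05 there were 767 genes (6.42%), of which 341 (2.86%) were higher in the score 4 lines and 426 (3.57%) lower. A separate fit under quantile normalization of the 13 arrays also counted 767 genes at that level, not necessarily the same ones. They were split the other way, 421 higher and 346 lower, so neither direction outnumbered the other under every scaling. Of all differences, 46.1% were above 0, and their median was -0.01. The 2.86%, 3.57% and 46.1% over all genes stand beside every count of list members below.

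Intervals were narrow for most genes. The median standard error of a difference was 0.12, and the median half-width of its 95% interval was 0.26, a 1.20-fold difference. For 92.5% of the genes the whole interval lay within 1 log2 unit of 0. Differences of at least 1 log2 unit by value were found for 65 genes, 37 higher and 28 lower in the score 4 lines, and 3 of them were at least 2. Complete separation of the groups was rare: all 6 score 4 lines lay above all 7 score 1 lines for 13 genes (0.109%) and below them for 11 genes (0.0921%).

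**Figure D1:**
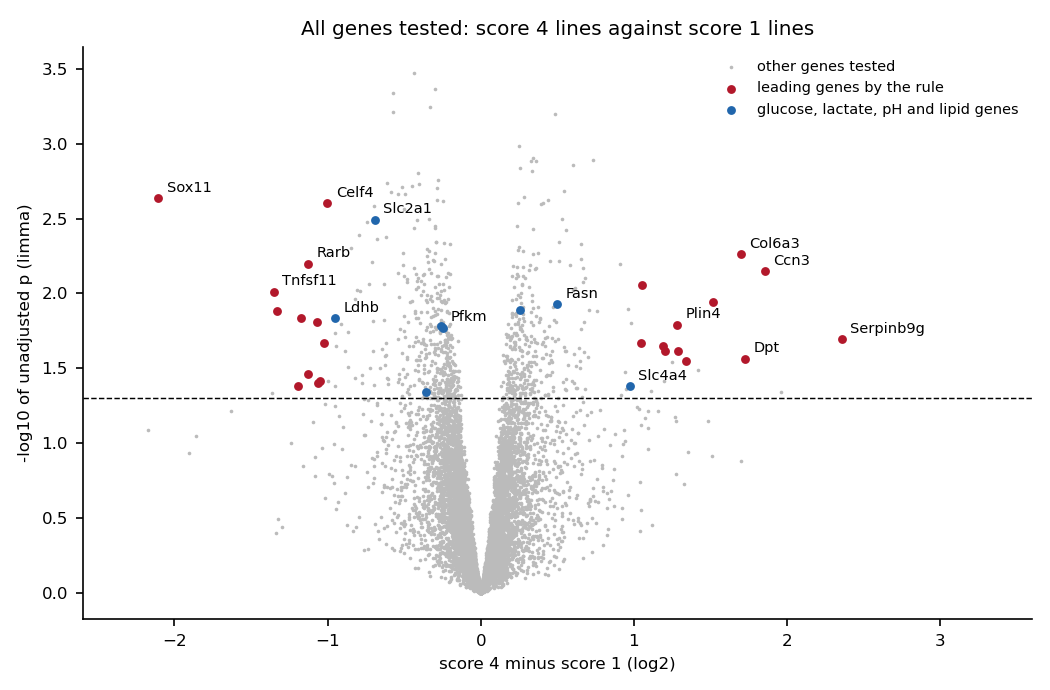
Difference between the mean of the 6 score 4 lines and the mean of the 7 score 1 lines (log2, x axis) against -log10 of limma's unadjusted p (y axis), 1 point per gene for 11942 genes. Named points are the leading genes in each direction and genes of glucose and lactate handling. None of the points has an adjusted p below 0.05, and the named leading genes lie between -2.10 and 2.36 on the x axis.

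Glucose uptake gave the clearest member of the pathway that makes lactate. Slc2a1, the main basal glucose transporter of cultured cells, measured 9.67 at the lowest, 9.97 at the median and 10.80 at the highest in the score 4 lines, against 10.36, 10.76 and 11.26 in the score 1 lines (log2 signal). Of the score 4 lines, 5 lay below every score 1 line, and the exception was SCF1-23 at 10.80. The means were 10.07 ± 0.42 (SD, n = 6) and 10.76 ± 0.33 (SD, n = 7; means below are given with the SD over the same 6 and 7 lines), and the difference of -0.69 ± 0.19 (SE), a 1.61-fold lower value in the score 4 lines, did not pass (limma, adjusted p = 0.766).

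The 2 other probe sets of Slc2a1 gave the same sign. The difference was -0.58 with depot in the model, -0.78 with adipocyte type in the model, -0.57 among SCF lines and -0.73 among the lines labelled Other. Outside the contrast, Slc2a1 lay between 9.48 and 10.31 in the score 3 lines, all on the score 4 side of the midpoint between the group means, and between 9.74 and 10.22 in the Type 1 lines. Leaving out SCF1-23 moved the difference to -0.84. Over the 30 alternatives run for it, the adjusted p for Slc2a1 ran from 0.140 to 0.938.

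The second facilitative transporter, Slc2a3, averaged 6.21 ± 0.86 in the score 4 lines and 6.92 ± 0.57 in the score 1 lines. Its difference of -0.71 ± 0.36 (SE) did not pass (limma, adjusted p = 0.797), and the highest score 1 line was PGF3-6 at 8.06. Among SCF lines the Slc2a3 difference was -0.18. Hexokinase 2 (Hk2), which traps glucose in the cell, showed a difference of -0.02 ± 0.34 (SE), and its sign changed in 10 alternatives. Of the 10 tested genes of 12 listed for glucose uptake and the control of glycolysis, 1 was lower and 0 were higher at an unadjusted p below 0.05. The shares over all genes tested were 3.57% lower and 2.86% higher. The median difference of the 10 genes was -0.10, beside -0.01 over all genes tested.

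Glycolytic enzymes were lower by value more often than higher, without passing. Of 15 listed enzymes 12 had a probe set assigned to that symbol alone and all 12 were tested: 8 differences were below 0, 4 above 0, and the median was -0.20. Pfkm, the muscle phosphofructokinase, differed by -0.25 ± 0.09 (SE), with a 95% interval from -0.45 to -0.05. Pgam1, phosphoglycerate mutase, averaged 11.07 ± 0.44 in the score 4 lines and 11.50 ± 0.24 in the score 1 lines, a difference of -0.43 ± 0.18 (SE, limma, adjusted p = 0.766).

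The low end of Pgam1 was made by the score 4 lines labelled Other. SCF3-16 measured 10.45 and PGF3-5 10.70, whereas the other 4 score 4 lines measured 11.05 to 11.64 and the score 1 lines 11.20 to 11.82. Ldha, the lactate dehydrogenase subunit abundant in glycolytic cells, had the same lines at its low end, SCF3-16 at 11.56 and PGF3-5 at 11.69, with 12.41 to 12.74 in the remaining score 4 lines and 12.11 to 12.99 in the score 1 lines.

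Ldha averaged 12.24 ± 0.49 and 12.55 ± 0.34, a difference of -0.31 ± 0.21 (SE) that did not pass (limma, adjusted p = 0.841). The Ldha difference was -0.18 without SCF3-16 and 0.03 among SCF lines, so its sign depended on the lines included. In both Ldha and Pgam1 the lines of the groups overlapped.

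Ldhb, the other lactate dehydrogenase subunit, measured 7.20 at the lowest, 8.47 at the median and 8.97 at the highest in the score 4 lines, against 8.24, 9.51 and 9.96 in the score 1 lines. The groups overlapped through PGF2-4 and PGF3-6, at 8.24 and 8.75, among the score 1 lines. The Ldhb difference was -0.95 ± 0.34 (SE) and did not pass (limma, adjusted p = 0.766), and its 3 other probe sets gave the same sign. In the score 3 lines Ldhb measured 8.71 to 10.17, and 4 of the 5 lay on the score 1 side of the midpoint, unlike Slc2a1.

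Slc16a1, which encodes the lactate and proton carrier MCT1, averaged 10.00 ± 0.18 in the score 4 lines and 10.35 ± 0.38 in the score 1 lines, a difference of -0.35 ± 0.16 (SE) that did not pass (limma, adjusted p = 0.766). The score 4 lines spanned 9.83 to 10.29, inside the 9.67 to 10.79 of the score 1 lines. Score 3 lines were higher than the score 4 lines, at 10.31 to 11.37, and Type 1 lines measured 11.27 to 11.84. The inducible lactate exporter Slc16a3 (MCT4) was below the filter on low signal, at 4.01 to 5.76 in the score 4 lines and 4.06 to 5.49 in the score 1 lines. Of the 8 genes listed for lactate handling, 6 were tested, with Ldhb and Slc16a1 lower at an unadjusted p below 0.05 and 0 higher. Over all genes tested, 3.57% were lower and 2.86% higher at that level, and the list as a set was not tested.

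**Figure D2:**
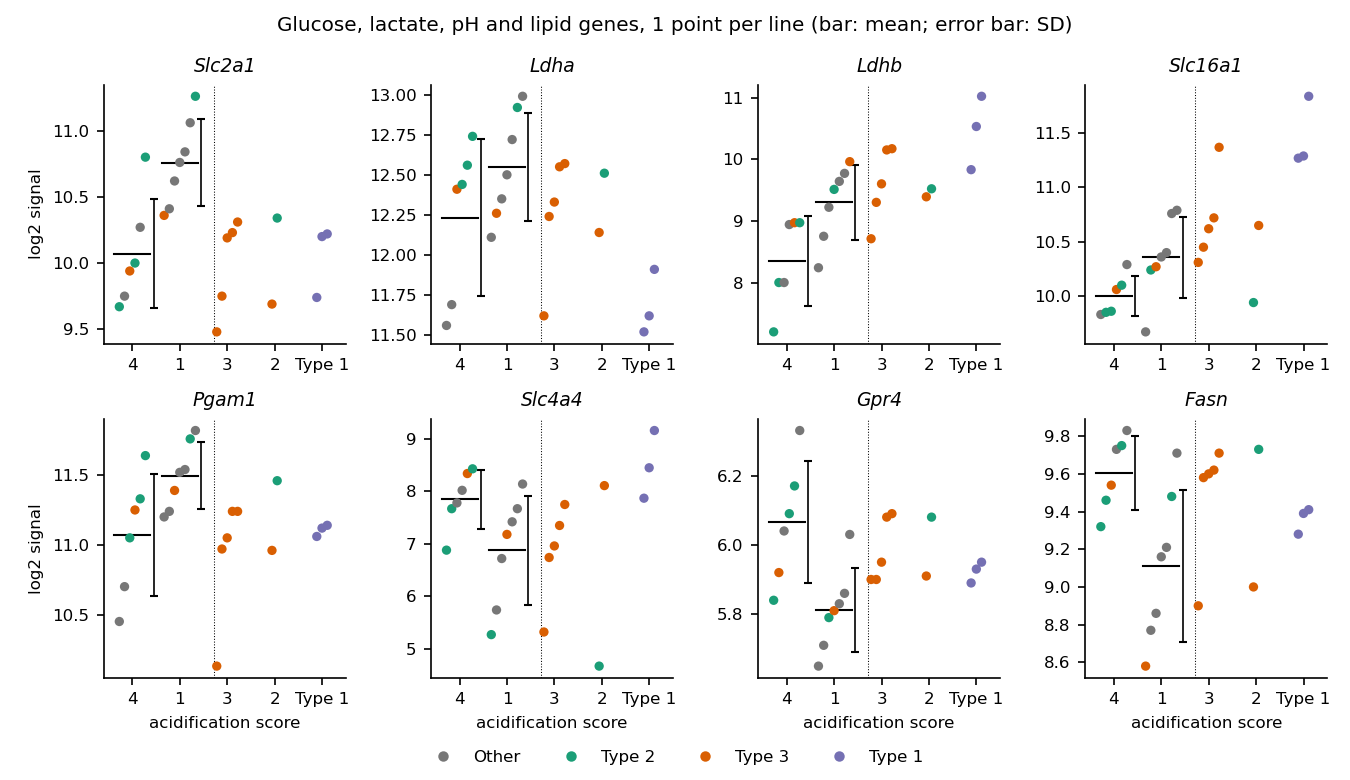
log2 signal of 8 genes of glucose, lactate, pH and lipid metabolism in each of the 23 lines (y axis), grouped on the x axis by acidification score with the Type 1 lines apart. Each point is 1 line, coloured by adipocyte type. Slc2a1 lay below every score 1 line in 5 of 6 score 4 lines, and the 2 lowest score 4 values of Ldha and Pgam1 were SCF3-16 and PGF3-5.

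The step from pyruvate into mitochondria showed no common direction. Of 12 tested genes of 14 listed, Pdp2, a phosphatase that activates pyruvate dehydrogenase, was higher at an unadjusted p below 0.05, averaging 6.21 ± 0.30 against 5.75 ± 0.40, a difference of 0.46 ± 0.19 (SE). Pyruvate carboxylase (Pcx), which makes oxaloacetate from pyruvate, differed by -0.45 ± 0.27 (SE). The pyruvate dehydrogenase kinases Pdk1 and Pdk4 differed by -0.17 ± 0.32 and 0.29 ± 0.42 (SE). With single lines left out, Pdk1 ran from -0.37 (without PGF3-6) to 0.01 (without PGF2-4) and Pdk4 from 0.09 (without PGF2-4) to 0.61 (without PGF3-6), and both changed sign in some alternatives. None of the 4 passed in limma.

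Differences of oxidative genes were small by value. Over 17 citric acid cycle genes the median difference was -0.01 with 0 at an unadjusted p below 0.05, and Idh2, the mitochondrial NADP-dependent isocitrate dehydrogenase, had the largest at 0.34 ± 0.17 (SE), which was 0.23 without PGF3-6. Of 25 genes of the respiratory chain and ATP synthase, 18 differences were below 0 and 7 above, with a median of -0.04. Cox5a, a subunit of cytochrome c oxidase, differed by -0.24 ± 0.10 (SE), between 12.15 ± 0.21 and 12.39 ± 0.15, and was the single member at an unadjusted p below 0.05. Every difference in that list lay between -0.24 and 0.05.

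Among carriers of acid and bicarbonate, 13 of 17 tested genes (25 listed) were higher by value in the score 4 lines, with a median difference of 0.11. Over all genes tested 46.1% of differences were above 0, with a median of -0.01. At an unadjusted p below 0.05, 1 member was higher and 1 lower, against 2.86% and 3.57% of all genes. The list's line mean ran from -0.26 to 0.35 in the score 4 lines and from -0.19 to 0.12 in the score 1 lines. Slc4a4, an electrogenic sodium-bicarbonate cotransporter, measured 6.88, 7.90 and 8.43 at the lowest, median and highest in the score 4 lines and 5.27, 7.18 and 8.14 in the score 1 lines. The groups overlapped widely, and the lowest score 1 lines were PGF3-2 at 5.27 and PGF3-6 at 5.74. The Slc4a4 difference of 0.98 ± 0.43 (SE) did not pass (limma, adjusted p = 0.766), and it was 0.31 among SCF lines.

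The score 3 lines did not follow the score 4 lines for Slc4a4, at 5.32 to 7.75. Its 3 other probe sets gave the same sign as the one used. Car12, a membrane carbonic anhydrase that faces outward, averaged 4.90 ± 0.23 and 5.27 ± 0.29, a difference of -0.37 ± 0.14 (SE) that did not pass (limma, adjusted p = 0.766). Car9, the hypoxia-induced relative of Car12, was below the filter, at 4.15 to 5.07 in the score 4 lines and 4.44 to 4.99 in the score 1 lines.

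The vacuolar proton pump, which acidifies endosomes and lysosomes, had 17 tested subunits of 18 listed. At an unadjusted p below 0.05, 3 were higher and 0 lower: Atp6v1b2 by 0.35 ± 0.14 (SE), the accessory subunit Atp6ap2 by 0.27 ± 0.11 (SE) and Atp6v0a1 by 0.40 ± 0.17 (SE), the last named after its value was seen. At that level, 2.86% of all genes tested were higher and 3.57% lower. Over all 17 subunits 10 differences were above 0 and the median was 0.04, so the list as a whole was centred close to 0.

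Of 8 listed receptors and channels that sense protons, 4 were tested. Gpr4, a proton-sensing receptor best known from endothelium, measured 5.84, 6.06 and 6.33 at the lowest, median and highest in the score 4 lines and 5.65, 5.81 and 6.03 in the score 1 lines. PGF2-4 at 6.03 and PGF3-6 at 5.86 were the score 1 lines that lay above the lowest score 4 line. The difference was 0.25 ± 0.09 (SE, limma, adjusted p = 0.766), at levels close to the table median of 5.13 in both groups. Asic1, an acid-sensing ion channel, differed by -0.26 ± 0.09 (SE), with 5.74 ± 0.14 against 6.00 ± 0.17.

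Genes that respond to oxygen gave no common shift. Of 16 tested hypoxia-response genes (17 listed), 0 were higher and 2 lower at an unadjusted p below 0.05. The shares over all genes tested were 2.86% higher and 3.57% lower. In the list 6 differences were above 0 and 10 below, with a median of -0.12. Egln1, the main oxygen-sensing prolyl hydroxylase, differed by -0.29 ± 0.11 (SE) and the histone demethylase Kdm3a by -0.23 ± 0.10 (SE), and these were the 2 lower genes. Hif1a itself, at 11.45 ± 0.18 and 11.52 ± 0.27, differed by -0.07 ± 0.13 (SE), and another Hif1a probe set had the opposite sign. Without PGF3-2 the Hif1a difference was -0.01. The ends of the list, chosen after their values were seen, were the peptide hormone Adm at 1.09 ± 0.54 (SE) and the mTORC1 inhibitor Ddit4 at -0.60 ± 0.28 (SE), in opposite directions.

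Fasn, fatty acid synthase, measured 9.32, 9.64 and 9.83 at the lowest, median and highest in the score 4 lines and 8.58, 9.16 and 9.71 in the score 1 lines. The score 1 lines PGF2-4 and PGF3-2, at 9.71 and 9.48, lay among the score 4 lines, and the remaining score 1 lines lay below all of them. The Fasn difference was 0.50 ± 0.17 (SE), 1.41-fold, and did not pass (limma, adjusted p = 0.766).

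Plin4, a perilipin that coats nascent lipid droplets, averaged 7.74 ± 1.05 against 6.45 ± 0.80, a difference of 1.28 ± 0.47 (SE). Its highest value was 9.55 in SCF1-23, and the groups overlapped. Pparg, the master regulator of adipocyte differentiation, averaged 8.29 ± 0.76 against 7.42 ± 1.07, a difference of 0.88 ± 0.48 (SE, limma, adjusted p = 0.806). PGF3-6 was the lowest line for Pparg at 5.64, and the difference was 0.58 without it and 0.08 among the lines labelled Other. With adipocyte type in the model the Pparg difference was 0.45.

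Over the 16 tested adipocyte differentiation genes (22 listed), 11 differences were above 0, the median was 0.16, and Fasn was the single member at an unadjusted p below 0.05, a share near that of all genes. The Fasn difference was 0.60 with depot in the model, 0.53 with adipocyte type, 0.48 with differentiation score and 0.64 among both the SCF lines and the lines labelled Other. Of 13 fatty acid oxidation genes, Acadl, the long-chain acyl-CoA dehydrogenase, was higher at an unadjusted p below 0.05, by 0.25 ± 0.09 (SE), while the list's median was -0.02. Slc1a5, a glutamine transporter, averaged 8.39 ± 0.22 against 8.03 ± 0.25, a difference of 0.36 ± 0.13 (SE), and the median of the 11 tested glutamine and amino acid genes was 0.00.

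Extracellular matrix genes held the leading gene on the higher side. Col6a3, the alpha-3 chain of collagen VI, a collagen abundant in adipose tissue, measured 11.12 at the lowest, 11.98 at the median and 12.52 at the highest in the score 4 lines, against 7.30, 10.63 and 11.06 in the score 1 lines. The groups did not overlap, although the gap between 11.12 in SCF1-23 and 11.06 in PGF2-4 was small. The Col6a3 means were 11.90 ± 0.50 and 10.20 ± 1.30, and the difference of 1.70 ± 0.51 (SE), 3.25-fold, did not pass (limma, adjusted p = 0.766).

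PGF3-6 stood far below the other score 1 lines for Col6a3, and without it the difference was 1.22. Outside the contrast, Col6a3 measured 11.32 to 12.10 in the score 3 lines and 11.19 and 12.40 in the score 2 lines, all above the highest score 1 line, and 5.81 to 7.03 in the Type 1 lines. Outside Type 1, the Col6a3 lines of score 1 lay below those of scores 2, 3 and 4, which overlapped with each other. The Type 1 lines, PGF2-8 and PGF3-4 with score 4 and PGF3-11 with score 2, lay below every score 1 line, so the order did not extend to them. Since all score 3 lines were Type 3 and both groups of the contrast mixed types, score and type cannot be told apart for the score 3 lines.

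The other chains of collagen VI gave differences of the same sign. Col6a2 averaged 10.76 ± 0.79 against 9.57 ± 1.01, a difference of 1.19 ± 0.46 (SE), and Col6a1, chosen after its value was seen, averaged 10.66 ± 0.69 against 9.75 ± 0.93, a difference of 0.91 ± 0.42 (SE). PGF3-6 was the lowest score 1 line for both, at 7.49 for Col6a2 and 7.73 for Col6a1, and the groups overlapped in both. Among SCF lines the Col6a2 difference was 0.58. Of 24 tested matrix genes (27 listed), the 3 chains of collagen VI were those at an unadjusted p below 0.05. Over all genes tested that share was 2.86% higher and 3.57% lower. In all, 18 matrix differences were above 0, with a median of 0.23, and the line mean of the list was lowest in PGF3-6.

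Ccn3, Dpt, Cpa6 and Lrrc17 were further leading genes on the higher side. Ccn3, a matricellular protein, averaged 8.09 ± 1.52 against 6.24 ± 0.74, a difference of 1.86 ± 0.59 (SE, limma, adjusted p = 0.766). Its highest lines were PGF3-5 at 10.51 and SCF3-16 at 9.24, and the remaining score 4 lines, at 6.49 to 7.84, overlapped with the score 1 lines at 5.26 to 7.35. Among the lines labelled Other the Ccn3 difference was 3.79 and among SCF lines 1.05, against 1.86 over the 13 lines.

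Dermatopontin (Dpt), a matrix protein of fibroblasts, averaged 8.26 ± 1.22 against 6.53 ± 1.51, a difference of 1.73 ± 0.70 (SE). The carboxypeptidase Cpa6 averaged 6.73 ± 0.47 against 5.22 ± 1.32, a difference of 1.51 ± 0.52 (SE), and the leucine-rich repeat protein Lrrc17 averaged 6.88 ± 1.20 against 5.60 ± 0.81, a difference of 1.29 ± 0.51 (SE). PGF3-6 was the lowest score 1 line for all 3, at 4.07 for Dpt, 3.39 for Cpa6 and 3.92 for Lrrc17, and the groups overlapped. Among SCF lines the Dpt difference was 0.36. None of these genes passed in limma.

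The remaining leading genes on the higher side were Serpinb9g, Slc24a3, Sema3d, Sh2d4a and Epha3. Serpinb9g, of the serine protease inhibitor family, had the largest difference of all named genes at 2.36 ± 0.90 (SE). Its score 4 lines ran from 3.13 in SCF3-16 to 9.65 in SCF1-23. The score 1 lines ran from 2.96 to 6.51 with a median of 3.10, below the table median of 5.13. The size of the Serpinb9g difference is therefore uncertain, and it was 2.06 among SCF lines and 0.94 among the lines labelled Other. Slc24a3, a potassium-dependent sodium-calcium exchanger, averaged 7.78 ± 0.69 against 6.44 ± 1.32, and its difference was 0.73 among SCF lines against 1.34 over the 13. Epha3, an ephrin receptor, and the adaptor Sh2d4a each differed by 1.05, with standard errors of 0.40 and 0.34. All score 1 values of Epha3 lay below the table median, so it passed the filter on low signal through score 4 lines alone and the size of its difference is uncertain.

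Sema3d, a secreted semaphorin, was unevenly spread in the score 4 lines. SCF3-16 and PGF3-5, the lines labelled Other, measured 6.67 and 6.81, and the remaining score 4 lines ran from 3.65 to 5.50, while the score 1 lines ran from 3.72 to 4.40. All score 1 values lay below the table median, so Sema3d passed the filter through 3 score 4 lines alone, and neither its difference of 1.21 ± 0.47 (SE) nor its passing the test among the lines labelled Other, 2 against 5, is read as a measured size or as support. Type 1 lines were higher, at 9.12 to 9.74, and the difference between Other lines and numbered types was not tested.

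**Figure D3:**
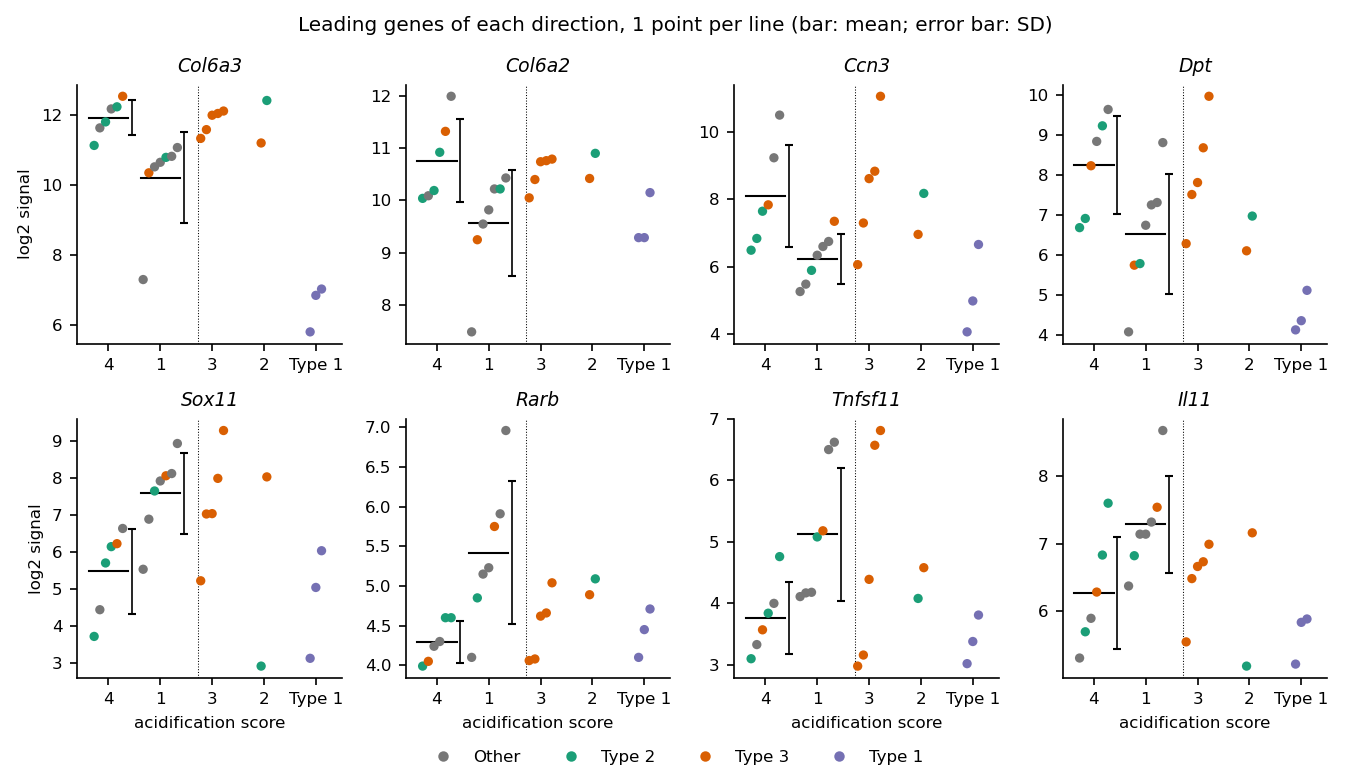
log2 signal of 8 leading genes in each of the 23 lines (y axis), grouped on the x axis by acidification score with the Type 1 lines apart; points are lines, coloured by adipocyte type. Col6a3 is the gene without overlap between scores 4 and 1, and PGF3-6 is the lowest score 1 line for Col6a3, Col6a2 and Dpt.

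On the lower side the leading gene was a developmental transcription factor. Sox11, which acts in neural and mesenchymal progenitors, measured 3.72 at the lowest, 5.92 at the median and 6.63 at the highest in the score 4 lines, against 5.53, 7.91 and 8.92 in the score 1 lines. Of the score 1 lines, 6 lay above every score 4 line, and PGF2-4, at 5.53, was the exception. The Sox11 means were 5.47 ± 1.14 and 7.58 ± 1.09, and the difference of -2.10 ± 0.56 (SE), 4.30-fold lower in the score 4 lines, did not pass (limma, adjusted p = 0.766).

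The 5 other probe sets of Sox11 gave the same sign. In the score 3 lines Sox11 measured 5.22 to 9.27, with 1 line on the score 4 side of the midpoint between the group means. In the Type 1 lines it measured 3.13 to 6.03. Rarb, the retinoic acid receptor beta and a retinoid-induced gene, averaged 4.29 ± 0.26 in the score 4 lines, below the table median in each, and 5.42 ± 0.90 in the score 1 lines, a difference of -1.13 ± 0.35 (SE). The highest Rarb line was PGF3-6 at 6.96, and SCF1-18, at 4.10, lay among the score 4 lines.

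Tnfsf11 and Il11 were the cytokines among the leading genes on the lower side. Tnfsf11, the osteoclast-inducing cytokine RANKL, averaged 3.77 ± 0.58 against 5.12 ± 1.08, a difference of -1.35 ± 0.45 (SE). All its score 4 values lay below the table median, so the size of that difference is uncertain, as for Rarb. Its higher score 1 lines were PGF3-6 at 6.62 and SCF1-18 at 6.50, and the score 3 lines ranged from 2.98 to 6.81. Il11, a cytokine of the interleukin 6 family, averaged 6.27 ± 0.84 against 7.29 ± 0.72, a difference of -1.02 ± 0.39 (SE), and was highest in PGF3-6 at 8.68.

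Shroom2, Pdlim4, Dpysl3, Dusp4 and Celf4 followed, and none of them passed in limma. The actin-associated genes Shroom2 and Pdlim4 differed by -1.33 ± 0.47 and -1.17 ± 0.42 (SE), and Dpysl3, a cytoskeletal regulator of growing neurites, by -1.13 ± 0.48 (SE). Shroom2 was higher in the Type 1 lines than in any line of the contrast, at 9.53 to 9.72. Dusp4, a phosphatase that switches off MAP kinases, averaged 6.77 ± 0.91 against 7.83 ± 0.60, with a difference of -0.31 among SCF lines against -1.07 over the 13, and the RNA-binding protein Celf4 averaged 5.44 ± 0.43 against 6.44 ± 0.60.

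The last 3 leading genes on the lower side were Crispld2, Mab21l1 and Mcpt8. Crispld2, a secreted protein of mesenchyme, differed by -1.07 ± 0.47 (SE), with SCF3-16 at 8.71 as the highest score 4 line. Mab21l1, a developmental gene, differed by -1.19 ± 0.53 (SE). Mcpt8, a protease of basophils, was below the table median in each score 4 line, at 4.44 to 4.85, and reached 7.25 in PGF3-2, 6.79 in PGF3-3, 6.51 in PGF3-6 and 5.99 in SCF1-18. Its difference was -1.05 over the 13 lines and -0.25 among SCF lines. The mean of the 12 leukocyte markers was 4.69 to 5.38 in the score 4 lines and 4.89 to 5.58 in the score 1 lines.

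The leading genes were picked by their size and p in this contrast, so the following is a description of how they behaved when other labels were held constant. All 24 kept their sign in each of 7 fits. The median ratio of a gene's difference to its value over the 13 lines was 1.01 with depot in the model, 1.08 with adipocyte type, 1.04 with clone-name series and 0.98 with differentiation score. Among the SCF lines alone, 5 against 3, the median ratio was 0.86, and Dpysl3 had a difference of -0.07 there. Among the lines labelled Other, 2 against 5, it was 1.30.

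Single lines weighed on these genes unequally. Among score 1 lines, PGF3-6 was the most extreme on the side away from the score 4 lines for 11 of the 24 leading genes, and among score 4 lines PGF3-5 was so for 10. Without PGF3-6 the median ratio was 0.89, and without PGF3-5 it was 0.92. In each of the 13 fits that left out 1 line, all 24 genes kept their sign and 0 passed at an adjusted p below 0.05.

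**Figure D4:**
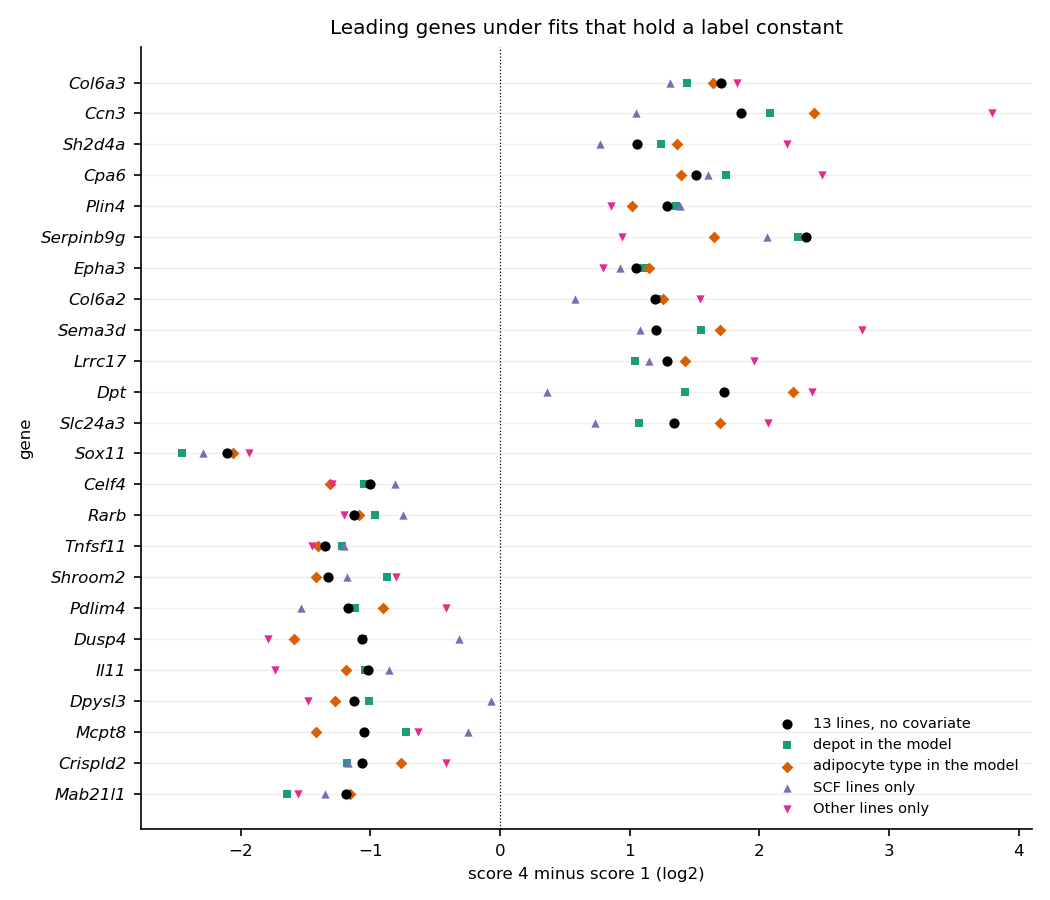
Difference between score 4 and score 1 lines (log2, x axis) for the 24 leading genes (y axis) over the 13 lines, with depot or adipocyte type in the model, among SCF lines only and among lines labelled Other only. All points of a gene lie on the same side of 0; Sema3d and Ccn3 lie farthest out among the lines labelled Other, and Dpysl3 is near 0 among SCF lines.

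The lines outside the contrast had no part in the fit that picked the leading genes. Their values did enter the choice of 1 probe set per gene, and the rule was written with earlier results of these data known. Score 3 lines lay on the score 4 side of the midpoint between the group means in 79 of 120 values of the 24 leading genes (65.8%), against 53.5% over all genes tested. Score 2 lines did so in 28 of 48 values (58.3%), against 52.6%. The 2 Type 1 lines of score 4 did so in 20 of 48 values (41.7%), against 46.5% over all genes. All 5 score 3 lines fell on that side for 4 of the 24 genes (16.7%), against 10.7% of all genes. These values share lines and are not independent, all score 3 lines are Type 3, and no test was made of them. The 24 genes include Epha3, Sema3d, Rarb, Tnfsf11 and Mcpt8, which passed the filter on low signal through the group where they were higher. The shares are therefore not read as support for any leading gene.

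Genes of cell division had no member that passed. Of 27 tested cell cycle genes (29 listed), 24 differences were below 0 and 3 above, with a median of -0.23, where 46.1% of all differences were above 0. At an unadjusted p below 0.05, 1 of the 27 was lower and 0 were higher, against 6.42% of all genes in either direction. Kif20a, a kinesin of cytokinesis, averaged 9.59 ± 0.39 against 10.13 ± 0.40, a difference of -0.54 ± 0.21 (SE) that did not pass (limma, adjusted p = 0.766), and Mki67, the proliferation antigen, differed by -0.23 ± 0.20 (SE), by -0.10 without PGF3-5 and by 0.01 among SCF lines. Cdc6, which licenses replication origins, differed by -0.28 ± 0.14 (SE) and by -0.09 among SCF lines.

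The spread of cell cycle genes followed a few lines. Relative to the mean of the 13 lines, the list's line mean was -0.42 in PGF3-5 and -0.38 in SCF3-16, and -0.09 to 0.19 in the other score 4 lines. In the score 1 lines it was -0.36 in SCF1-18 and 0.02 to 0.22 in the rest. Among the lines labelled Other the list's median difference was -0.59. Myc, a driver of growth, differed by 0.02 ± 0.18 (SE) with a sign that changed in 11 alternatives, and the median of 12 genes of Myc and ribosome synthesis was -0.07. Odc1 and Srm, enzymes of polyamine synthesis in that list, differed by -0.44 ± 0.31 and -0.29 ± 0.27 (SE), and by -0.22 without SCF3-16 and -0.11 without PGF3-5.

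**Figure D5:**
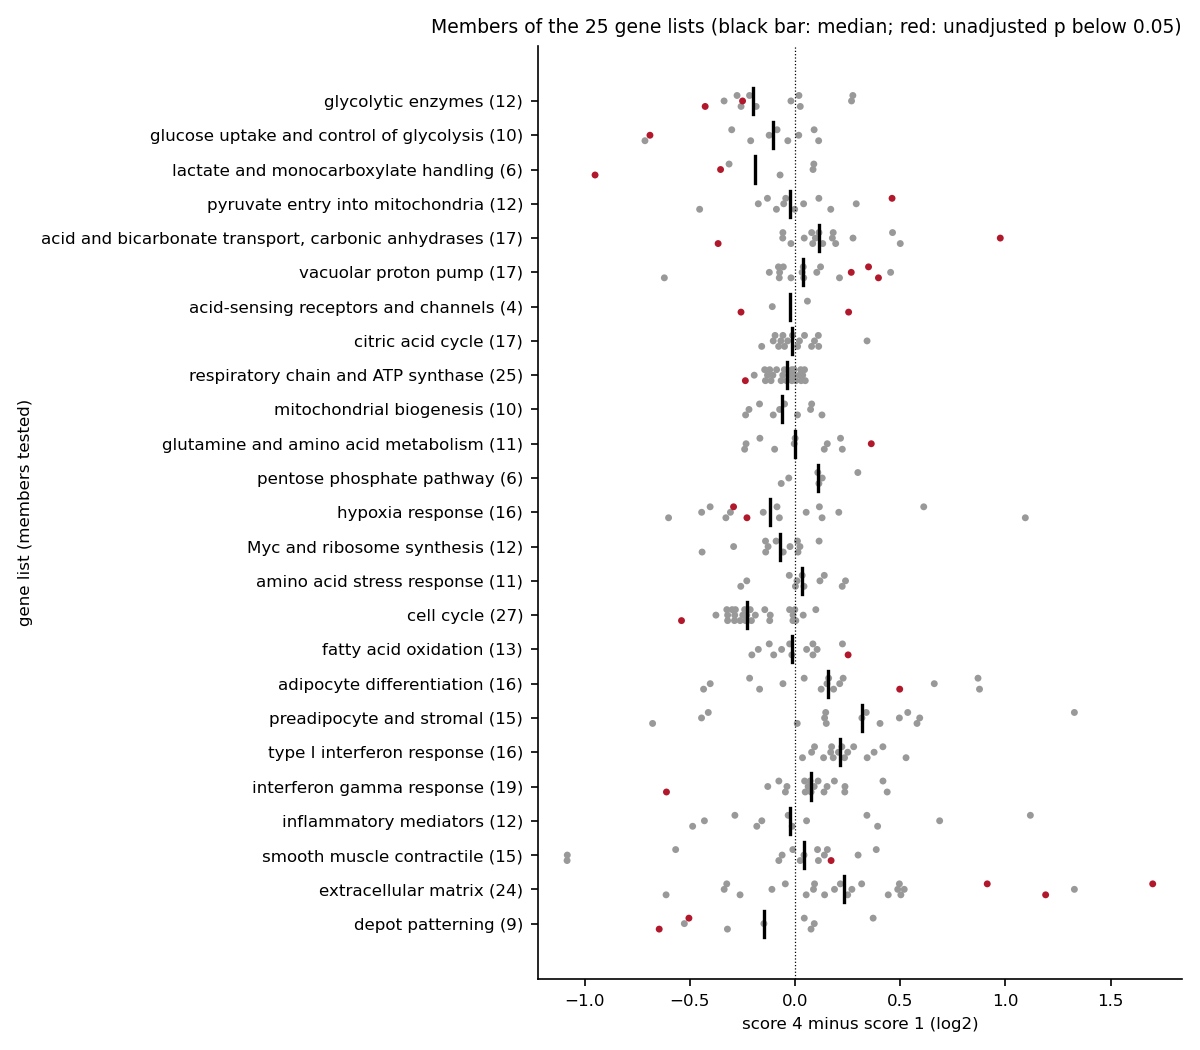
Differences between score 4 and score 1 lines (log2, x axis) of the tested members of 25 gene lists (y axis), 1 point per gene, with a bar at each list's median; red points have an unadjusted p below 0.05. List medians lie between -0.23 for the cell cycle and 0.32 for preadipocyte and stromal genes, and no point passed at an adjusted p below 0.05.

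Interferon-stimulated genes varied far more between lines of the same score than between scores. All 16 tested genes of the type I response were higher by value in the score 4 lines, with a median of 0.21 and 0 at an unadjusted p below 0.05. The list's line mean ran from -1.19 in SCF1-23 to 1.56 in PGF3-5 among score 4 lines and from -1.73 in PGF3-2 to 0.96 in SCF1-18 among score 1 lines. Mx1, an antiviral GTPase, averaged 7.74 ± 2.56 and 7.32 ± 2.42, a difference of 0.42 ± 1.25 (SE). The Mx1 difference was -0.20 without PGF3-5, 1.08 without SCF1-23 and 2.03 with adipocyte type in the model, and its sign turned in 6 alternatives. The 16 genes were measured in the same lines and are not independent of each other.

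Genes induced by interferon gamma, which was in the medium of every line, had a median difference of 0.08 over 19 genes. Gbp2, a guanylate-binding protein, was high in both groups at 13.44 ± 0.18 and 13.57 ± 0.23, a difference of -0.13 that was -0.06 without PGF3-6. Ido1, the tryptophan-degrading enzyme, averaged 4.66 ± 0.30 against 5.28 ± 0.64, a difference of -0.61 ± 0.26 (SE) against score 4 values that all lay below the table median. Inflammatory mediators had a median difference of -0.02 over 12 genes, and 1 line set their extremes: Saa3, an acute-phase protein, measured 13.90 in PGF3-5 and 5.36 to 7.27 in the other score 4 lines, so its difference was 1.12 with PGF3-5, -0.21 without it and 2.29 with adipocyte type in the model.

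Stromal and contractile genes were wide in both groups. The 15 tested preadipocyte and stromal genes had the highest list median, 0.32, with 12 above 0 and 0 at an unadjusted p below 0.05. Col1a1, the main fibrillar collagen, differed by 0.50 ± 0.24 (SE) and Gata2, a factor that holds precursors back from differentiation, by -0.68 ± 0.32 (SE), or -0.43 without PGF3-6. Tagln, a smooth muscle cytoskeletal gene, averaged 9.51 ± 1.78 and 9.40 ± 1.85, a difference of 0.11 ± 0.92 (SE) whose sign changed in 11 alternatives. Its highest line was PGF3-6 at 12.62, and its lowest was PGF3-5 at 7.03. Desmin (Des), the muscle intermediate filament, differed by 0.17 ± 0.08 (SE), and Mylk, myosin light chain kinase, by -1.08 ± 0.66 (SE), or -0.63 without PGF3-6.

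Patterning genes that differ between fat depots were compared because depot leaned with score. Of 15 listed patterning genes 9 were tested, and Emx2 and Shox2 were lower at an unadjusted p below 0.05. That level was reached by 3.57% of all genes tested on the lower side and 2.86% on the higher. Emx2 averaged 8.14 ± 0.43 against 8.79 ± 0.55, a difference of -0.65 ± 0.25 (SE). It was -0.64 with depot in the model and -0.75 among SCF lines. Shox2 averaged 9.46 ± 0.27 against 9.97 ± 0.50, a difference of -0.50 ± 0.21 (SE). The Shox2 difference was -0.29 with depot in the model and -0.25 among SCF lines. Neither passed in limma, and the score 3 lines lay between 7.86 and 8.46 for Emx2 and between 9.39 and 11.12 for Shox2.

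The remaining lists gave medians from -0.06 to 0.11, beside -0.01 over all genes tested. Mitochondrial biogenesis (10 genes tested) had -0.06, the amino acid stress response (11) 0.03 and the pentose phosphate pathway (6) 0.11, each with 0 members at an unadjusted p below 0.05 in either direction. Their members of smallest p were the nuclear factor Gabpa at -0.22 ± 0.11 (SE), the stress-induced Sesn2 at -0.26 ± 0.13 (SE) and the pentose phosphate isomerase Rpia at 0.30 ± 0.15 (SE). Compared over all genes after centring each gene, pairs of lines of the same score correlated at a mean of -0.07 (36 pairs) and pairs of different score at -0.08 (42 pairs). Pairs of the same type correlated at -0.02 (28 pairs) and pairs of different type at -0.11 (50 pairs). The types came from clustering these expression data, so that comparison is not an independent test of type. Pairs of lines labelled Other counted there as the same type, although Other lines carry none of the numbered types. Because each gene was centred over the lines, these correlations are not read against 0.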

How the data were processed

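Expression was measured on 23 arrays, 1 per clonal line, from 250 ng of total RNA. The deposited values are per probe set on a log2 scale, as read from their range of 2.03 to 14.46; MAS5 is named per the submitters' processing notes, and how probes were summarised and scaled is not stated in the labels or files. Of 45101 probe sets, 34945 carried 1 gene symbol, 932 several and 9224 none (64 were controls). One probe set per symbol, that with the highest mean over the 23 lines, gave 18193 genes, of which 11942 lay above the table median of 5.13 in at least 3 of the 13 lines. The number of arrays limits the precision.

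Score 4 was compared with score 1 with limma 3.58.1 in R 4.3.3 (lmFit and eBayes, no covariate), with Benjamini-Hochberg adjustment over all genes tested; tables and figures used Python 3.11.15, numpy 2.4.6, pandas 2.3.3, scipy 1.17.1 and matplotlib 3.10.9. Scripts were tested on simulated data. The text names, per direction, 12 genes with the largest difference among those passing, filled by smallest p among differences of at least 1; the 2 members of smallest p in each of 25 lists; and Ldha, Ldhb, Slc16a1, Slc16a3, Slc2a1, Hk2, Pdk1, Pdk4, Car9, Hif1a, Myc, Mki67, Pparg, Tagln, Mx1 and Wt1, besides a gene that is not reported here. The contrast, lists and rule were chosen with earlier results of these data known. Alternatives changed the filter, probe set rule, scaling, prior variance, array weights, covariates and lines, and left out each line in turn.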

Additional observations from a re-analysis of the deposited data

Results flagged for a closer look

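In 168 groups of values of the named genes, 1 group being a gene in the lines of 1 score, the highest or lowest line was tested for its distance from the others by Dixon's criterion, and 15 stood apart; chance gives about 1 in 20. PGF3-6 stood apart from the other score 1 lines for Col6a3 at 7.30 (others 10.34 to 11.06), Col6a2 at 7.49 (9.25 to 10.43), Lrrc17 at 3.92 (5.43 to 6.22) and, upwards, Slc2a3 at 8.06 (6.46 to 7.10). PGF3-5 stood apart from the other score 4 lines for Saa3 at 13.90 (5.36 to 7.27), Tnf at 7.30 (5.00 to 5.36) and, downwards, Slc1a5 at 7.97 (8.39 to 8.64). SCF3-16 did so among score 4 lines for Crispld2 at 8.71 (6.25 to 7.00) and, downwards, Esrra at 7.01 (7.33 to 7.50), and SCF1-23 for Slc16a3 at 5.76 (4.01 to 4.63). Among score 1 lines the others were SCF1-18 for Mki67 at 9.86 (10.50 to 10.93), SCF1-7 for Col1a1 at 9.89 (10.54 to 11.02), PGF3-2 for Xaf1 at 10.61 (11.53 to 12.13), PGF2-4 for Rpia at 9.03 (7.98 to 8.20) and PGF3-3 for Wt1 at 5.24 (3.02 to 3.71).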

How the results depend on the processing

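Of 30 alternatives, 27 left 0 genes at an adjusted p below 0.05. With adipocyte type in the model 1 gene passed (1573 genes at an unadjusted p below 0.05), over all 23 lines with type and score in the model 4 passed (1691 unadjusted), and among the lines labelled Other 1 passed, Sema3d, whose score 1 values all lay below the table median (1293 unadjusted). Array weights gave 1246 genes at an unadjusted p below 0.05 and 0 adjusted; the cause of these moves was not tested. Leaving out each line in turn gave 0 to 0 adjusted and 592 (without PGF3-3) to 985 (without SCF1-18) unadjusted. Of 2422 values of the 81 named genes tested, 54 changed sign, in Myc, Tagln, Hk2, Mx1, Pdk1, Pdk4, Tnf, Saa3, Ldha, Hif1a, Mki67, Mdh1, Etfb, Xaf1 and Des; the difference of Des, at an unadjusted p below 0.05 over the 13 lines, turned to -0.00247 with the mean of its probe sets. Medians of 7 lists moved among the lines labelled Other: cell cycle -0.59, inflammatory mediators 1.08, Myc and ribosome synthesis -0.50, amino acid stress response -0.43, respiratory chain -0.19, vacuolar proton pump 0.20 and citric acid cycle -0.11. No paired analysis was possible because replicate numbers only follow the order of deposition.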

Other observations

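The genes that passed with other labels in the model were Ctxn1, Lin7c, Rap1gap and Zfp106. The adipocyte types in these models came from clustering the same expression data, and Other entered as 1 type. Passing in these fits is therefore not read as support for a gene. Ctxn1, a small neuronal membrane protein, differed by -0.63 over the 13 lines, by -0.98 ± 0.11 (SE) with adipocyte type in the model (limma, adjusted p = 0.0282) and by -0.93 over 23 lines with type and score in the model (limma, adjusted p = 0.0385). Over the same 23 lines, Lin7c, a scaffold protein of cell junctions, differed by -0.46, Rap1gap, which switches off the GTPase Rap1, by -0.41, and the zinc finger protein Zfp106 by -0.37, each with an adjusted p of 0.0226 in limma. Under the alternatives in which they did not pass, the adjusted p-values of the 4 genes ran up to 0.938, from 0.403 for Ctxn1, 0.152 for Lin7c and Zfp106 and 0.140 for Rap1gap. Over the 13 lines alone their differences were -0.30, -0.31 and -0.29, and none of the 4 genes had an adjusted p below 0.766.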
